A study of Saccharomyces cerevisiae with 21 samples.

Results

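A set of 10 yeast genes for the remodelling of cell wall glucan were followed through drying and rehydration: the 4 genes of the SUN family (SUN4, SIM1, UTH1 and NCA3), the glucanase and glucan transferase genes SCW4, SCW10, BGL2 and EXG1, and the glucan and chitin transferase genes GAS1 and CRH1. They were chosen by symbol, as the probe sets whose gene in the platform annotation is one of the 10. All 10 were found, in 11 probe sets of 9275 tested, and 5656 genes in all had a probe set of their own. SCW10 had 2 probe sets, and the brighter stands for the gene unless the dimmer is named.

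The yeast wall rests on a net of beta-glucan, to which chitin and mannoproteins are attached. Synthases in the plasma membrane spin out the chains, and enzymes outside the membrane then cut, lengthen and cross-link them, which lets a wall grow, bud and separate without bursting. Gas1 lengthens and branches glucan chains, Crh1 joins chitin to glucan, Exg1 and Bgl2 trim or rejoin glucan, and the SUN proteins are a family tied to wall glucan, of which Sun4 acts in the separation of mother and daughter cells.

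RNA of the diploid laboratory strain BY4743, which carries deletions at HIS3, LEU2 and URA3, was measured on 21 Affymetrix arrays in 7 groups of 3. Cells were grown in rich glucose medium (YPD) at 30 °C to an absorbance of 0.8, spun down and resuspended in YPD diluted 20-fold at 22 to 25 °C. The control was taken from that suspension before drying began, and the rest was dried in dishes at the same temperature. The 50% dry group was taken after 18 h, and the dry group after 42 h of drying followed by 72 h at 20% relative humidity. The other 4 groups were dry cells put back into the diluted medium for 15, 45, 90 or 360 min, with the cells of 4 dishes pooled. Every comparison with the control therefore spans water loss together with many hours in diluted medium, and these cannot be told apart. Nothing in the labels ties the 3 arrays of a group to separate cultures, and p-values then cover only the spread between these samples, which may be technical.

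Values are deposited array signals, or differences of log2 signal after quantile normalization with their standard error (n = 3 arrays per group). "Rose" and "fell" are used where limma gave at least a 2-fold difference and its adjusted p was under 0.05. Signals are relative to all RNA on an array, so neither a loss of cells nor a general loss of RNA per cell would show in them. A fall or rise is thus a change of share and need not be a change per cell. The array medians ran from 141.2 to 207.3. On the 360 min arrays the brightest signal was 20672.5 to 30741.3, against 5619.1 to 10728.6 on the other 18. As a sign of RNA quality, the ACT1 control probe sets for the 3′ and the 5′ end of the transcript drew apart along the course, with a log2 difference (3′ minus 5′) from -0.57 ± 0.33 (SD, n = 3) in control cells to 0.94 ± 0.03 in dry cells and 2.71 ± 0.17 at 360 min. The controls of SRB4 and SPT15 were less steady: SRB4 went from 1.00 in control cells to 2.65 at 90 min and 2.36 at 360 min, and SPT15 from 1.48 in control to 1.05 in dry cells and 2.74 at 360 min. The part of these changes in the results was not tested. Control, 90 min and 360 min arrays each formed a hybridization run of their own, so run and group cannot be told apart for these. URA3 had a signal of at most 5.8 on any array and the brightest LEU2 probe set 107.5, while the brightest probe set of HIS3, of which the strain's allele keeps a part, ran from 126.5 to 874.5.

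Between control and 50% dry cells, 6 of the 10 genes fell, 1 rose and 3 did neither. SUN4, SCW10 and SIM1 fell most, GAS1, EXG1 and CRH1 fell as well, NCA3 rose, and UTH1, BGL2 and SCW4 lay within 2-fold of the control. The median log2 difference of the 10 was -1.96, against -0.02 over all probe sets, of which 13.9% fell and 13.1% rose. In dry cells against the control 7 genes fell and 1 rose, where 17.5% of all probe sets fell and 17.5% rose. By the F test over the 7 groups all 10 differed, with adjusted p from 1.68e-14 to 0.00043, as did 82.5% of all probe sets.

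**Figure D1:**
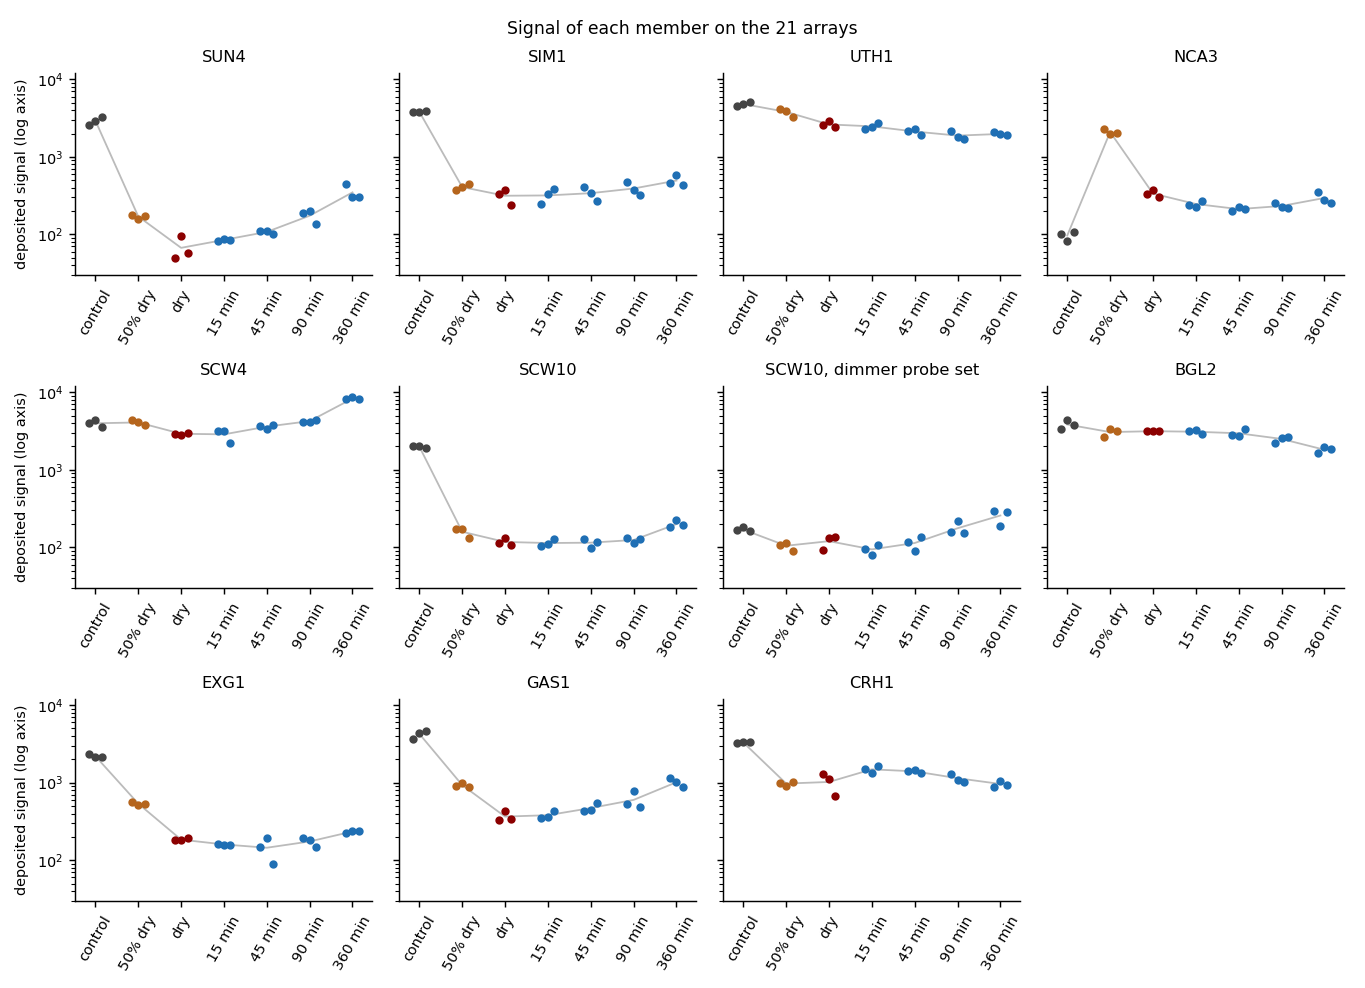
Deposited signal (log axis) of each probe set on the 21 arrays, by group; points are single arrays and the line joins the group means. Signals of SUN4, SIM1, SCW10, EXG1, GAS1 and CRH1 drop from control to 50% dry, NCA3 peaks at 50% dry, and SCW4 is highest at 360 min.

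SUN4 had the widest course of the 10, with group means that spanned 5.30 on the log2 scale. Its signal was 2589.3, 2916.4 and 3293.9 on the control arrays, 180.9, 156.9 and 174.9 at 50% dry, and 49.5, 95.4 and 56.9 in dry cells. None of these groups overlapped. SUN4 fell by 4.17 ± 0.17 from control to 50% dry (18.0-fold, adjusted p = 1.29e-13) and by another 1.13 ± 0.17 from 50% dry to dry (adjusted p = 3.22e-05). During rehydration the signals were 81.2, 88.7 and 85.5 at 15 min, 111.0, 110.1 and 102.8 at 45 min, 188.5, 198.3 and 137.0 at 90 min, and 443.3, 302.0 and 301.8 at 360 min. The dry array at 95.4 lay above the 15 min arrays in this signal, though not after quantile normalization, and from 15 min on each group lay above the one before it without overlap. The step from dry to 15 min was 0.43 ± 0.17 (adjusted p = 0.282), that from 15 to 45 min 0.36 ± 0.17 (adjusted p = 0.381), and that from 45 to 90 min 0.57 ± 0.17 (adjusted p = 0.0604). From 90 to 360 min SUN4 rose by 1.18 ± 0.17 (adjusted p = 2.81e-05), the only one of the 10 genes called in that comparison. Without the brightest 360 min array the step was 1.00, and on the deposited scaling 0.92, both under 2-fold. From dry to 360 min SUN4 rose by 2.54 ± 0.17 (5.80-fold), and at 360 min it remained 2.76 ± 0.17 below the control.

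SIM1, the paralog of SUN4, read 3767.7, 3807.8 and 3866.4 in control cells. At 50% dry it read 375.4, 408.2 and 442.0, and in dry cells 335.9, 373.5 and 238.3. It fell by 3.47 ± 0.19 from control to 50% dry (11.1-fold, adjusted p = 1.13e-11), and the further difference to dry cells was -0.44 ± 0.19 (adjusted p = 0.0826). The arrays of the dry, 15 min, 45 min and 90 min groups overlapped from each group to the next. At 360 min the signals were 458.6, 589.2 and 439.0, and SIM1 had risen by 1.09 ± 0.19 above dry cells (2.13-fold, adjusted p = 7.74e-05). That rise was 0.63 on the deposited scaling, 0.91 without the third dry array and 0.99 without the second 360 min array, each below 2-fold. The change of SUN4 exceeded that of SIM1 by 1.39 in dry cells against control (SUN4 lower) and by 1.45 at 360 min against dry (SUN4 higher). Both differences had an exact two-sided permutation p of 0.1, the smallest that 3 arrays against 3 allow, and 0.15 after adjustment over 27 such tests of paralogs.

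NCA3, named for its part in the expression of the mitochondrial ATP synthase, went the opposite way. Its signal was 101.5, 82.4 and 107.4 in control cells, 2275.1, 1990.8 and 2019.2 at 50% dry, and 334.4, 372.3 and 303.5 in dry cells. Every 50% dry array lay far above the arrays of all other groups. NCA3 rose by 4.22 ± 0.12 from control to 50% dry (18.6-fold, adjusted p = 1.5e-15) and then fell by 2.78 ± 0.12 to dry cells (6.88-fold, adjusted p = 9.52e-12). It was still 1.43 ± 0.12 above the control in dry cells and 1.74 ± 0.12 above it at 360 min. Between 15 and 90 min its signals stayed from 198.6 to 274.0, and at 360 min they were 349.2, 281.5 and 255.5, overlapping those of dry cells. The log2 difference of 360 min from dry was 0.31 ± 0.12 after quantile normalization and -0.19 on the deposited scaling.

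UTH1, which encodes a SUN protein also studied at the mitochondrial outer membrane, was among the brighter signals throughout and had a shallow course. Its signals were 4499.6, 4784.0 and 5159.5 in control cells, 4194.6, 3911.6 and 3318.4 at 50% dry, and 2573.3, 2904.5 and 2398.5 in dry cells. UTH1 in dry cells had fallen by 1.08 ± 0.11 from the control (2.11-fold, adjusted p = 4.8e-08), a call that was lost on the deposited scaling (-0.87) and, just under 2-fold, without the third dry array (-0.999). It did not return during rehydration: at 360 min the signals were 2079.4, 1946.6 and 1911.6, a fall of 1.59 ± 0.11 from the control. Against dry cells the difference at 360 min was -0.51 ± 0.11 (adjusted p = 0.000527) and 0.06 with median-centred arrays. The change of UTH1 from control to 50% dry minus that of NCA3 on the same arrays was -4.77. Its exact permutation p was 0.1, the smallest that this test allows, and 0.15 after adjustment.

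The related wall glucan transferase genes SCW4 and SCW10, which are paralogs, differed in their course at 50% dry, as read by the brighter SCW10 probe set. SCW10 read 2036.2, 2026.2 and 1902.6 in control cells and 171.7, 172.4 and 132.5 at 50% dry, and fell by 3.61 ± 0.13 (12.2-fold, adjusted p = 2.32e-14). SCW4 read 3979.0, 4437.6 and 3517.4 in control cells and 4340.8, 4127.7 and 3769.6 at 50% dry, a difference of -0.02 ± 0.14 (95% interval -0.32 to 0.27). The control and 50% dry arrays of SCW4 overlapped, those of SCW10 did not. The change of SCW4 exceeded that of SCW10 by 3.59 (exact permutation p = 0.1, the smallest that this test allows, adjusted 0.15).

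In dry cells SCW10 read 115.1, 131.3 and 105.9, and it stayed from 98.4 to 132.8 on all arrays from 15 to 90 min. At 360 min it read 184.5, 222.1 and 191.9, a rise of 1.16 ± 0.13 from dry (adjusted p = 4.12e-07) that was 0.68 on the deposited scaling. SCW10 was then still 2.82 ± 0.13 below the control. The dimmer SCW10 probe set, at 80.2 to 298.0 over the 21 arrays, gave a different course. It lay 0.82 ± 0.18 below the control at 50% dry (adjusted p = 0.000641), rose by 1.47 ± 0.18 from dry to 360 min, and at 360 min was 0.82 ± 0.18 above the control. In dry cells it lay 0.66 below the control, under 2-fold. The falls of SCW10 at 50% dry, in dry cells and at 360 min against the control are therefore readings of the brighter probe set only.

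SCW4 read 2920.6, 2815.8 and 3011.0 in dry cells, 3646.7, 3383.6 and 3781.0 at 45 min, 4188.5, 4115.7 and 4422.4 at 90 min, and 8144.3, 8573.1 and 8170.3 at 360 min. In the deposited signal the mean at 360 min was 2.85 times that of dry cells. After quantile normalization the same difference was 0.58 ± 0.14 (adjusted p = 0.0015), under 2-fold, whereas it was 1.50 on the deposited scaling (adjusted p = 3.16e-09) and 1.97 with median-centred arrays (adjusted p = 2.51e-10), both called. Its difference from the control at 360 min likewise was 0.09 ± 0.14 after quantile normalization, 1.06 on the deposited scaling and 1.30 with median-centred arrays. On dry arrays 363 to 388 probe sets were brighter than that of SCW4, and on 360 min arrays 124 to 160. Whether SCW4 was above its control level after 360 min thus depended on how the arrays were scaled, and in no scaling did it fall below it.

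**Figure D2:**
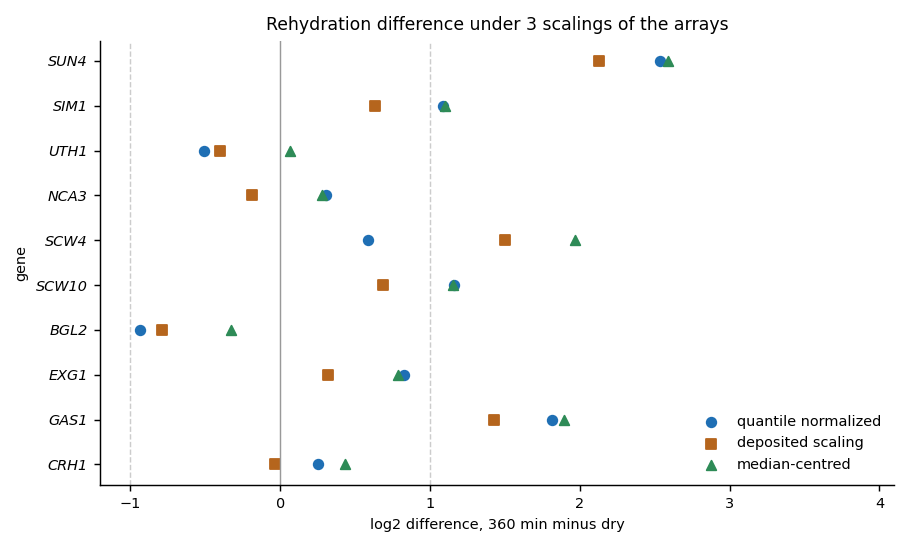
Log2 difference of 360 min from dry cells (horizontal axis) for each gene under 3 scalings of the arrays; dashed lines mark 2-fold. SCW4 moves from 0.58 to 1.97 with the scaling, while SUN4 and GAS1 lie beyond 2-fold in all 3.

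BGL2, for a major glucan transferase of the wall, differed least from the control in dry cells among the 10. Its signals were 3344.1, 4364.5 and 3807.6 in control cells and 3183.4, 3135.8 and 3124.6 in dry cells, a difference of -0.26 ± 0.12 (adjusted p = 0.073). It was lower after rehydration, with 2238.8, 2606.1 and 2657.2 at 90 min and 1651.1, 1949.9 and 1843.2 at 360 min. The 360 min arrays lay below the arrays of every other group. At 360 min BGL2 had fallen by 1.19 ± 0.12 from the control (2.28-fold, adjusted p = 5.09e-08), a value of -0.83 with median-centred arrays. Its difference from dry cells was -0.93 ± 0.12 (adjusted p = 2.57e-06), under 2-fold.

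EXG1, for the main secreted exoglucanase, read 2324.0, 2125.4 and 2135.2 in control cells, 567.1, 511.2 and 530.7 at 50% dry, and 180.4, 180.1 and 192.3 in dry cells. These 3 groups were far apart, and the arrays within each were close together. EXG1 fell by 2.04 ± 0.16 from control to 50% dry (adjusted p = 1.57e-09) and fell by 1.56 ± 0.16 from there to dry cells (adjusted p = 3.61e-07), 12.1-fold in all. From 15 to 90 min its signals ran from 90.2 to 195.1, and at 360 min they were 226.0, 236.8 and 241.3. The difference of 360 min from dry was 0.83 ± 0.16 (adjusted p = 0.000188), under 2-fold, and on the deposited scaling 0.32 (adjusted p = 0.0903), and EXG1 was then 2.77 ± 0.16 below the control.

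GAS1 followed a like course with a larger return. Its signals were 3701.1, 4425.4 and 4646.7 in control cells, 913.6, 984.0 and 891.5 at 50% dry, and 328.2, 426.7 and 340.7 in dry cells. GAS1 fell by 2.47 ± 0.16 in the first step (5.55-fold, adjusted p = 1.52e-10) and by 1.45 ± 0.16 in the second (adjusted p = 1.27e-06). At 45 min it read 425.9, 438.8 and 547.0, at 90 min 530.0, 783.1 and 485.5, and at 360 min 1150.5, 1019.8 and 867.6. All 360 min arrays lay above all arrays from the dry to the 90 min group. GAS1 rose by 1.81 ± 0.16 from dry to 360 min (3.51-fold, adjusted p = 2.29e-08), and the part of this from 90 to 360 min was 0.95 ± 0.16 (adjusted p = 0.000154).

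CRH1 read 3219.5, 3336.6 and 3344.6 in control cells, 992.2, 895.9 and 1033.1 at 50% dry, and 1289.8, 1106.9 and 666.9 in dry cells. It fell by 1.88 ± 0.17 from control to 50% dry (3.67-fold, adjusted p = 1.8e-08), and 50% dry and dry cells overlapped. At 15 min the signals were 1497.7, 1328.9 and 1629.6, above all dry arrays by 0.63 ± 0.17, with an adjusted p of 0.0943. Within the hybridization run that dry and 15 min arrays shared (2 arrays each) this difference was 0.76, and without the third dry array, the lowest, it was 0.33. At 360 min CRH1 read 890.0, 1049.7 and 945.5, within the range of dry cells, and its difference from the control was -1.65 ± 0.17.

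**Figure D3:**
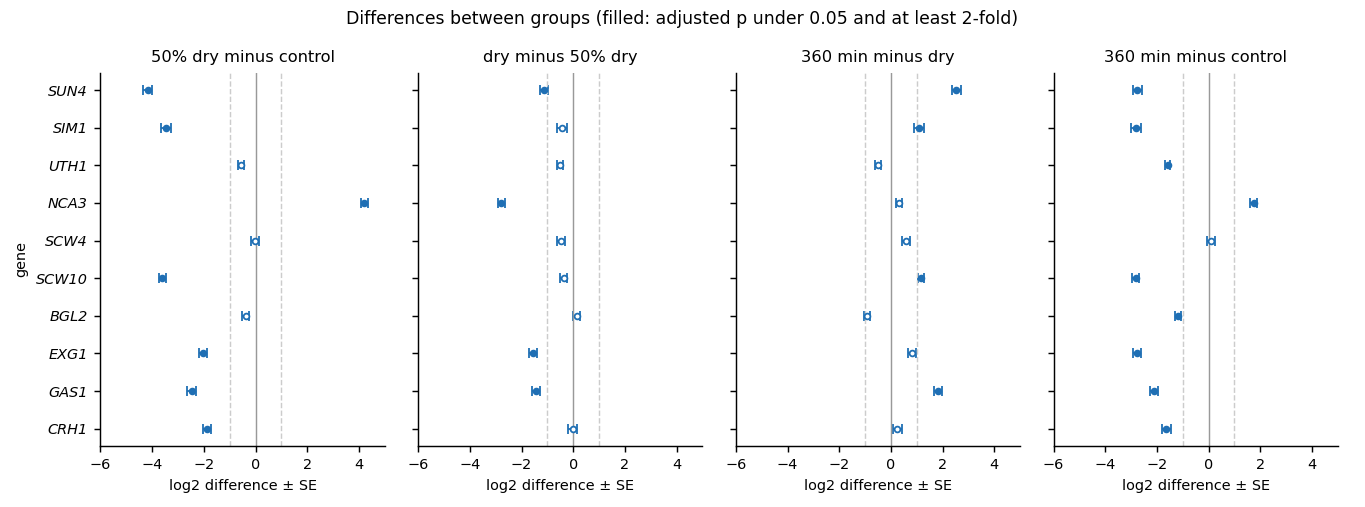
Log2 differences ± SE of the 10 genes in 4 comparisons of groups (3 arrays each); filled points passed the test and the 2-fold limit, and dashed lines mark 2-fold. Most genes lie left of 0 in 50% dry against control, and 4 lie beyond 2-fold to the right in 360 min against dry.

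By step of the course, 4 of the genes fell from 50% dry to dry cells (SUN4, NCA3, EXG1 and GAS1), a step in which the later drying and the storage cannot be told apart and where 5.05% of all probe sets fell and 3.06% rose. One dry array was hybridized in the same run as the 50% dry arrays, and against it alone the differences were -1.37 for SUN4, -2.80 for NCA3, -1.59 for EXG1 and -1.60 for GAS1. None of the 10 genes was called from dry to 15 min, from 15 to 45 min or from 45 to 90 min by limma, and 3 in each step had an unadjusted p under 0.05. Calls were rare in these steps over the whole array: 0.0539% of probe sets rose and 0.0647% fell in the first, 0.0431% and 0.0323% in the second, and 0.0647% and 0.108% in the third. From 90 to 360 min 3.82% of all probe sets rose and 3.07% fell, and SUN4 rose. Over the whole rehydration, from dry to 360 min, SUN4, GAS1, SCW10 and SIM1 rose and none of the 10 fell, where 11.4% of all probe sets rose and 11.7% fell. The median of the 10 was 0.70. Scaling shifted this comparison as a whole: the median of all probe sets was 0.00 after quantile normalization, -0.20 on the deposited scaling and 0.27 with median-centred arrays, and the share of calls that were higher was 49.4%, 33.5% and 69.5%. From 90 to 360 min that share was 55.4%, 42.5% and 78.5%. At 360 min against the control 8 of the 10 were lower, NCA3 was higher and SCW4 was neither, where 21.4% of all probe sets were lower and 19.7% higher. Of the 8, SCW10 was lower by its brighter probe set only, and BGL2 was under 2-fold with median-centred arrays (-0.83). SCW4 was called higher on the deposited scaling (1.06) and with median-centred arrays (1.30).

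Among the 10 courses, SIM1 and SCW10 were the closest pair, with a root mean square difference of 0.09 between their 7 centred group means on the log2 scale, and SUN4 and NCA3 the farthest apart, at 2.41. Over 3568 other genes, the course most like that of SIM1 was that of SAM4 (0.08), which was also the nearest to SCW10 (0.15), and PRY2 came second for both. GAS1 was nearest to DSE2 (0.06), followed by ELO3 and GUA1. EXG1 was nearest to LSB1 (0.11), BAT1 and THR1, and SUN4 to ARO8 (0.25), IMD4 and TKL1. CRH1 was nearest to SVS1 (0.13), YHI9 and CHS3, and BGL2 to PRE7 (0.08), ARC18 and CHO1. For UTH1 the nearest were OST6 (0.09), MRPL25 and MAK11, and for SCW4 SGO1 (0.16), UTP21 and ATG18. The group means of SCW4 spanned 0.73, while the genes compared spanned at least 1, so courses as flat as its own were not searched. NCA3 had no close match, the nearest being ALP1 (0.43), RPS0B and DIC1.

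The RefSeq gene table places SCW10 and GAS1 on the same chromosome with 1 protein-coding gene between them, FKS3, for a relative of the glucan synthases. FKS3, looked at for this position after its values were seen, differed from the control at 50% dry by 0.21 ± 0.22 (adjusted p = 0.444). In that comparison GAS1 fell, as did SCW10 by its brighter probe set. From dry to 360 min FKS3 rose by 1.35 ± 0.22, and both neighbours rose as well. SCW4 and BGL2 also share a chromosome, with 2 protein-coding genes between them, PXR1 and YOR1. That pair differed in direction from dry to 360 min, with SCW4 at 0.58 ± 0.14 and BGL2 at -0.93 ± 0.12. Both were under 2-fold after quantile normalization. A link between position and course was not tested.

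The other genes of wall building were read through 5 lists, some of which share genes. Of 16 other enzymes that remodel glucan and chitin, 8 fell and none rose from control to 50% dry (median -1.22), where 13.9% of all probe sets fell and 13.1% rose. They include UTR2, a chitin transferase related to CRH1, which fell by 4.04 ± 0.22, GAS3, a relative of GAS1, which fell by 3.70 ± 0.15, and TOS1, which fell by 3.12 ± 0.15. From dry to 360 min 4 of the 16 rose and none fell, beside 11.4% and 11.7% of all probe sets. EXG2, for a membrane-anchored exoglucanase, rose by 2.74 ± 0.15, and the daughter cell glucanase genes DSE2 and DSE4 by 1.79 ± 0.17 and 1.66 ± 0.20.

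Of 15 genes for beta-glucan synthesis, 5 fell and 1 rose from control to 50% dry, beside 13.9% and 13.1% of all probe sets. The catalytic subunits of glucan synthase went opposite ways. FKS1, for the subunit used in growth, read 4431.6, 4846.4 and 4950.3 in control cells and 1029.3, 1136.8 and 946.3 at 50% dry, a fall of 2.54 ± 0.10. GSC2, for the subunit known from stress and sporulation, read 531.6, 650.4 and 553.2 in control cells and 2607.3, 2823.0 and 2758.5 at 50% dry, a rise of 2.33 ± 0.12. The groups did not overlap for either gene. SMI1, for a regulator of glucan synthesis, fell by 1.85 ± 0.16. From dry to 360 min 2 of the 15 rose, near the 11.4% of all probe sets, and 4 fell, where 11.7% of all did. Those that fell include SKN1 (-2.37 ± 0.14), BIG1 (-1.57 ± 0.38) and ROT1 (-1.43 ± 0.11), all known from beta-glucan assembly.

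Of 13 genes for chitin synthesis, 7 fell from control to 50% dry, with CHS2, for the septum chitin synthase, at -2.12 ± 0.25 and QRI1, for an enzyme of the chitin precursor, at -1.83 ± 0.13. Of all probe sets 13.9% fell and 13.1% rose. CDA1, for a chitin deacetylase known from spore walls, was the only gene of the list to rise. Its signals were 1.8, 1.5 and 1.6 in control cells, 128.3, 100.6 and 121.1 at 50% dry, 79.2, 85.0 and 71.6 in dry cells, and 2.6, 2.2 and 3.4 at 360 min. The control and 360 min signals lie within the range of URA3, which the strain lacks, and far below the added 17.74, so no fold is given, although both the higher level at 50% dry and the lower one at 360 min against dry passed the test. Of the 13, 1 rose and 2 fell from dry to 360 min. CHS6, for an export factor of chitin synthase, fell by 1.22 ± 0.16 in that comparison, where 11.4% of all probe sets rose and 11.7% fell, and PCM1, for another precursor enzyme, rose by 1.08 ± 0.09. With 50% of the median signal added before log2 in place of 10%, CDA1 and CHS6 (-0.82) were under 2-fold in that comparison, as was PCM1 on the deposited scaling (0.78).

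The 21 genes of cell wall integrity signalling had 6 higher and 6 lower at 50% dry than in control cells, and all probe sets were split as evenly, with 13.1% higher and 13.9% lower. BAG7, for a GTPase-activating protein, rose by 2.59 ± 0.09, while the sensor genes WSC2 and MID2 fell by 2.41 ± 0.11 and 1.39 ± 0.12. Other sensor genes did not fall: WSC1 (listed as SLG1) rose by 1.03 ± 0.09, and MTL1 differed by 0.26 ± 0.20 and was not called. From dry to 360 min 7 of the 21 fell and none rose, beside 11.7% and 11.4% of all probe sets. Among these, WSC1 was at -2.35 ± 0.09 and MTL1 at -1.51 ± 0.20. LRG1, for another GTPase-activating protein, read 85.8, 93.1 and 92.7 in dry cells and 20.3, 7.1 and 7.7 at 360 min, near or below the added 17.74, so its fold is not given. With 50% of the median added, the list had 6 calls in place of 12 at 50% dry against control and 3 in place of 7 from dry to 360 min, and LRG1 was no longer called. Of 14 measured genes for the separation of daughter cells, 4 fell and 1 rose from control to 50% dry, beside 13.9% and 13.1% of all probe sets, led by AMN1 (-2.63 ± 0.15), SCW11 (-2.60 ± 0.14) and DSE2 (-2.38 ± 0.17). From dry to 360 min 4 rose and 1 fell, where 11.4% and 11.7% of all probe sets did, and DSE1 rose by 1.54 ± 0.37 beside DSE2 and DSE4.

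**Figure D4:**
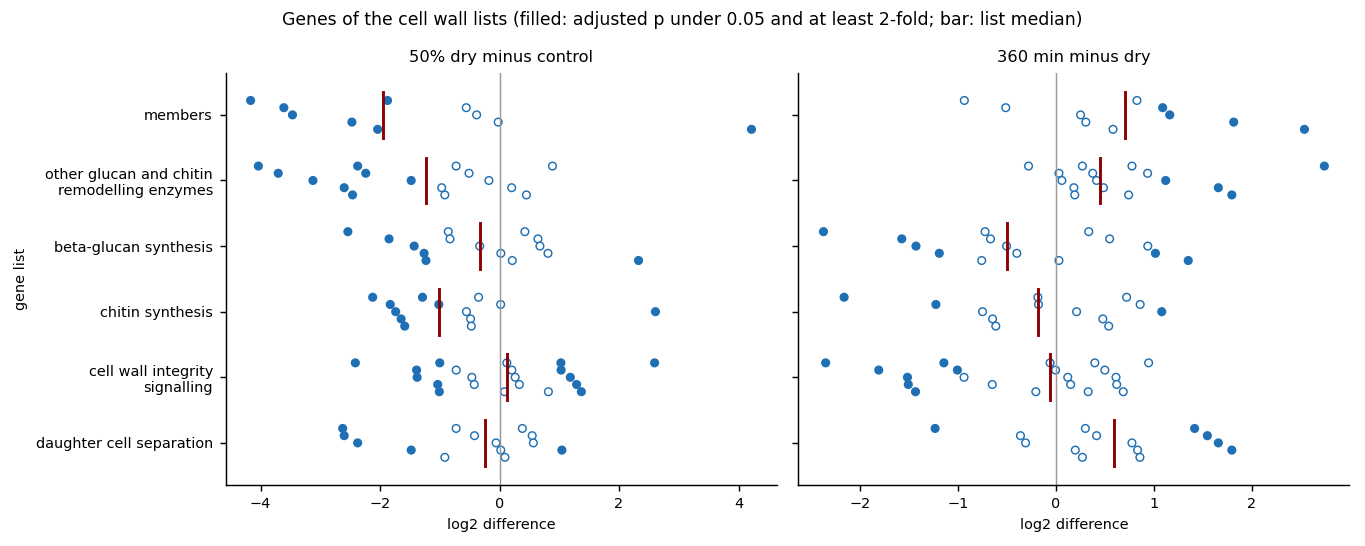
Log2 difference of every gene of the 10 and of the 5 other cell wall lists, for 50% dry against control and for 360 min against dry; each point is a gene, filled where it passed the test and the 2-fold limit, and bars are list medians. The median of the 10 is -1.96 in the left panel and 0.70 in the right one.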

How the data were processed

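The arrays carry oligonucleotide probe sets on which labelled copies of total RNA were hybridized. The deposited values are linear signal intensities of probe sets. Image data were analysed by the authors in Affymetrix's GeneChip software, followed by a Wilcoxon test and by a mixed linear model that merged a set's probes, per the labels. Which version, scaling and genome build they used is not given in the sources used here, and on every array the 2% trimmed mean was 500.2 to 500.5. Records deposited with the arrays gave the times of hybridization and scanning. Arrays whose hybridization times followed closely on each other were taken as a run. This gave 6 hybridization runs on 3 scan days, and the runs are thus inferred, not named in the records.

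Of 9335 probe sets, 60 controls were left out, and 6504 of the other 9275 named 1 gene in the platform annotation, 328 several and 2443 none. All 6504 were matched to RefSeq, which here served for names and neighbours only. A gene's brightest probe set stood for it. To each signal 17.74 was added, which is 10% of the median signal (177.4), before log2 and quantile normalization. limma 3.58.1 in R 4.3.3 fitted group means over all 21 arrays with a variance trend (14 residual degrees of freedom), and p-values were adjusted by Benjamini-Hochberg over all 9275 probe sets in each comparison. Calls needed an adjusted p under 0.05 and a 2-fold difference. The 9 comparisons share groups, so their values are not independent.

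All 10 genes are named. From each other list the text names up to 3 called genes with the largest difference in 50% dry against control and in 360 min against dry, and for each of the 10 the 3 genes with the most similar course whose group means span at least 1 on the log2 scale. The genes and lists were chosen with earlier results of these data known. Paralogs were compared within arrays by exact two-sided permutation tests. On simulated data for 50% dry against control, 200 of 9275 probe sets were changed, with independent noise and no run effect. Of these, 37% of 2-fold and 94% of 3-fold changes were called, with 2 unchanged probe sets called. A set change of 2-fold lies on the limit itself, so many of its estimates fall short of it. In the real comparison 2499 probe sets were called, so the simulated rates need not hold there. Precision is limited by 3 arrays per group. Other added values, scalings, thresholds, filters, blocks and array sets were tried. No sequence was used here.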

Additional observations from a re-analysis of the deposited data

How the results depend on the processing

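Of 2820 recalculated differences of the 10 genes, 2748 stayed the same, 13 lost the call and 24 gained one. Most came from leaving out 1 array, often from neither group compared, so 2748 overstates stability. The other 35, uncalled, moved beyond the spread between arrays. Same meant call and direction kept or, if uncalled, a move within that spread. An uncalled value could change sign within it: CRH1 from dry to 360 min was 0.25, and -0.04 on the deposited scaling. No call reversed in the 2820, which leave out the other probe set of SCW10. The number of genes called from 90 to 360 min was the least stable: 1 in the reported analysis, 0 with 50% of the median added, 0 on the deposited scaling, 2 with median-centred arrays, 7 with no fold minimum, and 0 to 2 when an array was left out. It was 0 without the first 360 min array (SUN4 lost) and 2 without the second 90 min array (GAS1 at 1.15) or the third 360 min array (GAS1 at 1.07). From dry to 360 min 4 genes were called, 2 with 50% of the median added and 9 with no fold minimum, and from 50% dry to dry 4 were called and 7 with no fold minimum. With 50% added, SUN4 lost its call from 50% dry to dry (-0.69) and from 90 to 360 min (0.95), and SIM1 (0.93) and SCW10 (0.83) lost theirs from dry to 360 min. The direction of SCW10 at 360 min against the control reversed with its other probe set (0.82), which was also not called at 50% dry (-0.82) or in dry cells (-0.66). The cause of these moves was not tested beyond the smaller differences that a larger added value gives.

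Over all 9275 probe sets, calls from dry to 360 min went from 2147 to 1249 with 50% added and to 5460 with no fold minimum, from 50% dry to dry from 752 to 410 and 3258, and from 90 to 360 min from 639 to 265 and 3737, or to 1042 with 1% added and 1006 with median-centred arrays. With no fold minimum the other counts were 5322 for 50% dry and 5969 for dry against control, 6562 for 360 min against control, and 72, 95 and 436 for the successive steps dry to 15 min, 15 to 45 min and 45 to 90 min. The few calls of those steps (11, 7 and 16) varied from 2 to 18, from 0 to 64 and from 3 to 35 under the other alternatives, the 2 and the 64 with the hybridization run as a fixed block. Among the lists, 50% added gave 5 calls in place of 8 in glucan synthesis in dry cells against control and 1 in place of 3 in chitin synthesis from dry to 360 min. The share of calls that were higher, in the step from dry to 15 min, was 45.5%, or 27.8% on the deposited scaling, and from 15 to 45 min 57.1% or 33.3%.

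With the replicate number as a block, 7 genes were called at 50% dry against control and 4 from dry to 360 min, and all 90 differences kept their call. Of 63 pairs of arrays with the same number in different groups, deviations correlated at -0.24 to 0.24, with 5 pairs above 0.1. Pairs with different numbers were not compared, so whether the numbers pair the samples was not tested. With the hybridization run as a random block (correlation -0.24) no count of the 10 changed. Control, 90 min and 360 min arrays each filled a run, so this block could show no run effect in comparisons with them. No scan-day block was run, since each group lay in 1 day, and no promoter letters were counted without sequences. The 3 arrays per group limit the precision of every value.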
